A study of Mus musculus with 14 samples.

Results

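Foxd1, Tfap2d, Zmat4, 2610300M13Rik, Sulf1, Rgs7, Ddc, Vat1l, Ccdc141 and Dner are 10 of the 18193 genes named on the arrays of this series. They were selected on their measured signal, as genes that stood highest, relative to an empty vector array, on arrays of partial induced pluripotent stem cells (partial iPSCs) that carried a Ccr4-Not subunit or Trim28. The values of those arrays chose the members, so the differences from the empty vector are given below as a description, without a test. All 10 genes were among the 12663 that passed a filter on dim signal. They were read by 21 probe sets, and a gene's values below are those of its brightest probe set, by the mean of the 14 arrays, unless another is named. Levels are log2 RMA signal, on which a difference of 1 is a 2-fold change.

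Partial iPSCs are cells whose reprogramming halted short of genuine pluripotency. Clones 2B1 and 5C5 are female C57BL/6 and were kept in medium with serum and leukemia inhibitory factor (LIF), with 1 untreated array each. Both clones were also converted to iPSCs in 2i, which inhibits the kinases MEK and GSK3 (1 array each). The remaining 7 arrays of 2B1 came from cells transduced with retrovirus and kept in LIF and serum. Of these, 1 carried empty vector, 1 Nanog, 1 Trim28 and 3 a Ccr4-Not subunit alone (Cnot1, Cnot2 or Cnot3). The last carried the 3 subunits combined (the Cnot1,2,3 array), and every condition had 1 array. Embryonic stem cells (ESCs) in LIF and serum were of the Nanog-GFP transgenic line (male, C57BL/6) and of the wild-type line EBRTcH3 (male, 129sv), with 1 array each. Nanog-GFP mouse embryonic fibroblasts (MEFs) of mixed sex, C57BL/6, cultured without LIF, gave 1 array, and the sample title gives 12.5 dpc where the series text gives 13.5 dpc.

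The members do not form a known pathway. Foxd1 is a forkhead transcription factor of the kidney stroma and the developing retina, and Tfap2d is an AP-2 family transcription factor of the developing midbrain. Zmat4 encodes a matrin-type zinc finger protein, and 2610300M13Rik is annotated as a noncoding RNA. Sulf1 encodes a secreted sulfatase that removes 6-O-sulfate from heparan sulfate and thereby alters growth factor signalling, and Dner encodes a neuronal transmembrane protein with EGF repeats that acts as a Notch ligand. Rgs7 encodes a regulator that speeds the shut-off of G proteins, and Ddc encodes the decarboxylase that makes dopamine and serotonin from their amino acid precursors. Ccdc141 encodes a coiled-coil protein of migrating neurons, and Vat1l is a paralog of the vesicle amine transport protein Vat1. Of the proteins introduced into the cells, the Cnot proteins belong to Ccr4-Not, the complex that shortens the poly(A) tails of mRNAs. Trim28 is a corepressor that zinc finger proteins bring to DNA.

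The members lie on 6 chromosomes. Sulf1, Tfap2d, Dner and Rgs7 are on chromosome 1, which holds 4 of 10 members and 5.46% of the tested genes. Ccdc141 is on chromosome 2, 2610300M13Rik on 6, Zmat4 and Vat1l on 8, Ddc on 11 and Foxd1 on 13. RefSeq promoter sequences of build GRCm38.p6 were matched for 8 of the 10 genes. The 250 bases before a transcription start are shown for 4 of them. Foxd1 and 2610300M13Rik had their highest signal on the Cnot1,2,3 array, Rgs7 on the Cnot1 array and Ddc on the Cnot3 array. The sequences run 5′ to 3′ on the gene's strand, and capitals mark matches to the motifs searched.
Foxd1, chr13:98353995-98354244, plus strand: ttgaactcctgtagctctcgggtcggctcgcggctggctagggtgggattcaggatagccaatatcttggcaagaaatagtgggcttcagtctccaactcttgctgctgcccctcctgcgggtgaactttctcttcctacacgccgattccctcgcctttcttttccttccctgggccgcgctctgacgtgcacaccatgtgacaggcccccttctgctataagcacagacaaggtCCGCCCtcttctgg
2610300M13Rik, chr6:66466473-66466722, minus strand: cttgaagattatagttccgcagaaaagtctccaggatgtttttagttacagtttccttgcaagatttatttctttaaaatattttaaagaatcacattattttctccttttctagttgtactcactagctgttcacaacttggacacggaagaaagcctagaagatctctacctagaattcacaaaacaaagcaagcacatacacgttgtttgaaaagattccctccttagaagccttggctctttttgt
Rgs7, chr1:175492546-175492795, minus strand: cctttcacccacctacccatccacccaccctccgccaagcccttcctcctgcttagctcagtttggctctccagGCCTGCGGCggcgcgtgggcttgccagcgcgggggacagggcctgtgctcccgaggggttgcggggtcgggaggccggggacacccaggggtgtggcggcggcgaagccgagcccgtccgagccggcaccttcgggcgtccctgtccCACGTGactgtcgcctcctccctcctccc
Ddc, chr11:11898145-11898394, minus strand: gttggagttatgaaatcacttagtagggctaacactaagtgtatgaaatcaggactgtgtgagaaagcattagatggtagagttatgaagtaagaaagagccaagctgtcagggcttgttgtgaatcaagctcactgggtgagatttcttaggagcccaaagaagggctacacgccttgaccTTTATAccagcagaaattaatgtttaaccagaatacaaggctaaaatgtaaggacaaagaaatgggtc
Motifs were searched on both strands, and a match is a description of the letters only. TATAAA, the TATA box, stood in 1 of the 12 windows of the matched members, upstream of one start of Ddc, against 12.4% of 32851 windows of all genes. GGGCGG, the GC box, was matched in Foxd1 alone (32.7% of all windows). CACGTG, an E-box, and GCCNNNGGC, the letters bound by AP-2 proteins, were both matched in Rgs7 alone, against 6.02% and 13.7% of all windows. The capitals of the Foxd1 and Ddc sequences are on the opposite strand to the motif as spelled here. Median GC content was 51.0% in the members' windows and 52.4% in all windows. Each of the 4 motifs was matched in 1 member, so no motif was shared between members.

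The deposited values fell into 2 sets of 7 arrays, the untransduced and the transduced ones, with array means of 6.09 and of 5.87 to 5.88. The sets looked separately normalized, which is inferred from the values alone, and they are called so below. Levels set across the sets are named as such. Some arrays stood apart from the rest in ways that the labels do not give, and these were noticed after seeing the data. On chromosome 11 the median difference from empty vector was -0.38, -0.30, -0.24, -0.15 and -0.30 on the Cnot1, Cnot2, Cnot3, Trim28 and Cnot1,2,3 arrays. It was -0.01 on the Nanog array. On chromosome 6 the same medians were 0.22, 0.17, 0.19, 0.11 and 0.24, against -0.01 with Nanog. Over the other 18 chromosomes, medians on these 6 arrays ranged from -0.11 to 0.09. Xist, the RNA that coats the inactive X chromosome of female cells, read 13.08 with empty vector and 13.01 with Nanog. It read 8.88 with Cnot1, 11.19 with Cnot2, 10.55 with Cnot3, 12.50 with Trim28 and 4.79 with Cnot1,2,3. Untreated 2B1 read 5.44 and untreated 5C5 13.49. The empty vector and Nanog arrays thus lay together in these measures. The 5 arrays on which the members were high lay apart from them in the chromosome medians, and in Xist the Trim28 array lay close to them. Ddc on chromosome 11 and 2610300M13Rik on chromosome 6 lie on the chromosomes named. The part of these differences between arrays in the members' values was not tested.

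**Figure D1:**
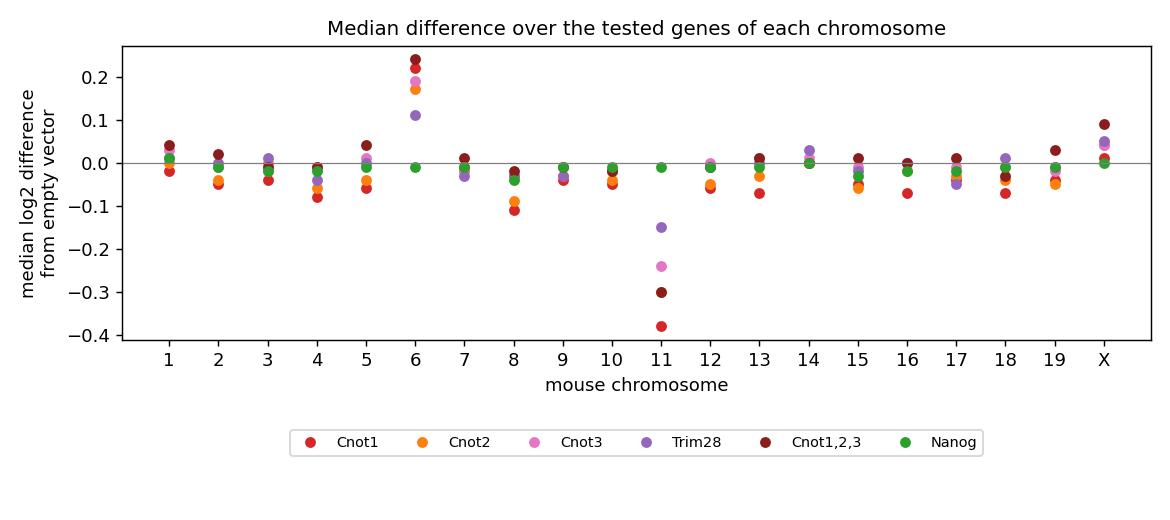
Median log2 difference from the empty vector array (y axis) over the tested genes of each mouse chromosome (x axis), 1 point per transduced array. Chromosome 11 lies below 0 and chromosome 6 above 0 on the 5 Cnot and Trim28 arrays, and at -0.01 on the Nanog array in both.

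The introduced genes could not be checked through these arrays. Cnot2, Cnot3 and Trim28 were not raised on their own arrays, with differences from empty vector of -0.32 to 0.08 over the 6 probe sets of Cnot2, 0.06 and 0.30 for Cnot3, and -0.33 and -0.01 for Trim28. Nanog read 3.12 on the Nanog array and 4.11 with empty vector, and no probe set was annotated to Cnot1. Whether these probe sets lie within the introduced cDNAs is not given in the sources used here. As markers of cell state, Zfp42, a gene of naive pluripotent cells, read 2.57 and 2.38 in untreated 2B1 and 5C5 and 2.37 to 2.72 on the transduced arrays. It read 12.26 to 12.89 in 2i iPSCs and ESCs. Of 15 naive pluripotency genes, 12 were called higher by limma in ESCs than in untreated partial iPSCs, and 1 lower. The lower one was Klf4, at 12.11 and 12.77 in untreated 2B1 and 5C5 and 10.85 and 11.21 in ESCs. Nr0b1 of the same list read 10.76 and 9.75 in the untreated clones. The fibroblast collagen gene Col1a2 read 14.52 in MEFs and 11.15 and 10.62 in the untreated clones. It was higher in 2i iPSCs of 2B1 and 5C5 (12.28 and 12.50) and low in ESCs (5.96 and 5.70). On the transduced arrays, from the other normalized set, Col1a2 read 7.79 with empty vector to 9.45 with Cnot1,2,3.

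The first comparison sets the 5 Cnot and Trim28 arrays against empty vector. All 10 members were raised, meaning higher by at least 1, on the Cnot3 array, 9 on Cnot1, 9 on Cnot2, 8 on Trim28 and 8 on Cnot1,2,3. Over all tested genes the shares raised by at least 1 were 4.15% on Cnot1, 2.87% on Cnot2, 2.49% on Cnot3, 0.963% on Trim28 and 3.72% on Cnot1,2,3. These arrays chose the members, so nothing is read from their excess. The median difference of the members was 2.40, 2.22, 1.83, 1.80 and 2.19 in the same order of arrays. The median of all tested genes lay between -0.05 and -0.01. In 7 of 10 members the difference reached 1 on every one of the 5 arrays, as it did in 0.505% of tested genes. Tfap2d, Sulf1 and Dner did not reach it everywhere, and Zmat4 reached it by little on the Cnot1 array, at 1.01. The 5 comparisons share the same empty vector array, so a low reading there raises a gene on all of them.

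**Figure D2:**
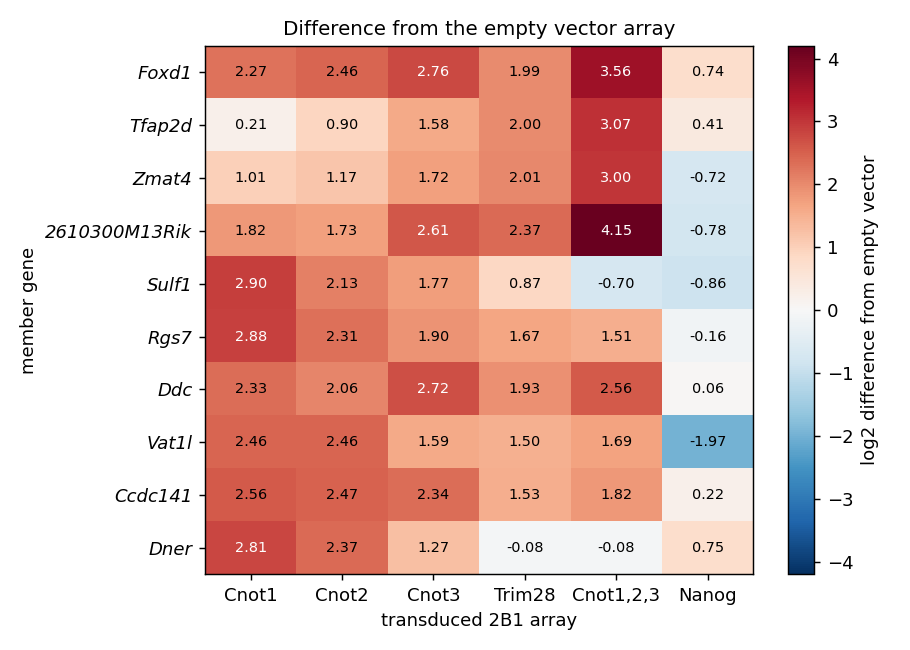
Log2 difference from the empty vector array for each member gene (y axis, rows) on 6 transduced 2B1 arrays (x axis, columns), printed in each cell and coloured on the scale at the right. Differences reach 4.15 for 2610300M13Rik on the Cnot1,2,3 array, and in the Nanog column 9 of 10 members lie within 1 of the vector.

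In bulk RNA, more cells that express a gene and more RNA per cell cannot be told apart, and this holds for every level below. Among the members that encode regulators of transcription, Foxd1 read 6.97 with empty vector. It read 9.24 with Cnot1, 9.43 with Cnot2, 9.73 with Cnot3, 8.95 with Trim28 and 10.53 with Cnot1,2,3. All 5 arrays lay above empty vector, by 1.99 with Trim28 to 3.56 with Cnot1,2,3, and the latter is an 11.8-fold difference. Tfap2d read 4.05 with empty vector, then 4.26, 4.95, 5.63, 6.06 and 7.12 in the same order of arrays. It thus stood near the vector with Cnot1 (0.21) and highest with Cnot1,2,3 (3.07). Tfap2d passed the filter on dim signal through 3 of these 5 arrays and 0 of the other 9, so a difference was required for it to be tested at all. The filter asks for 2 arrays at or above the table's median of 5.42. 2610300M13Rik and Dner each reached it on 1 of the other 9 arrays, so 3 of the 10 members were tested only through the arrays that chose them.

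Zmat4, the matrin-type zinc finger gene, read 4.84 with empty vector, then 5.85 with Cnot1, 6.02 with Cnot2, 6.57 with Cnot3, 6.85 with Trim28 and 7.84 with Cnot1,2,3. Its lowest difference was 1.01 and its highest 3.00. Its 2 other probe sets were dimmer, with a highest level over the transduced arrays of 5.48 and 4.50, and had mean differences of 1.01 and 0.63 over the 5 arrays. The noncoding RNA 2610300M13Rik read 4.92 with empty vector, then 6.74, 6.66, 7.53, 7.29 and 9.08 in the same order. Its difference with Cnot1,2,3 was 4.15, or 17.8-fold. After the median of chromosome 6 was subtracted it was 3.92. Foxd1, Tfap2d, Zmat4 and 2610300M13Rik were the 4 members whose highest signal was on the Cnot1,2,3 array.

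Sulf1 and Dner, whose products act outside the cell or at its surface, ran the other way over these arrays. Sulf1, the heparan sulfate sulfatase, read 7.48 with empty vector, 10.38 with Cnot1, 9.61 with Cnot2, 9.25 with Cnot3, 8.35 with Trim28 and 6.78 with Cnot1,2,3. It was the gene with the largest positive difference of all tested genes on the Cnot1 array (2.90), and with the 3 subunits together it lay 0.70 below the vector. One other probe set of Sulf1 followed this one with r = 0.99 over the 7 transduced arrays, and the other reached no more than 3.16 on them. Dner read 4.26 with empty vector, then 7.06, 6.62, 5.52, 4.17 and 4.17 in the same order of arrays. It was raised on the arrays of each subunit alone, by 2.81, 2.37 and 1.27, and lay at -0.08 with Trim28 and -0.08 with Cnot1,2,3. The other Dner probe set read 3.48 with empty vector, then 6.51, 6.36, 4.98, 3.57 and 3.04, and had the same order from Cnot1 to Trim28.

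Rgs7, the G protein regulator, read 5.13 with empty vector, 8.01 with Cnot1, 7.44 with Cnot2, 7.03 with Cnot3, 6.79 with Trim28 and 6.63 with Cnot1,2,3. The 5 differences fell between 1.51 and 2.88. Ddc, the monoamine decarboxylase, read 8.11 with empty vector, then 10.44, 10.17, 10.83, 10.04 and 10.67. Its 5 arrays lay within 0.79 of each other, the narrowest range among the members. With the median of chromosome 11 subtracted, its differences of 1.93 to 2.72 became 2.08 to 2.96. The other Ddc probe set was dim, at most 4.65 on the transduced arrays, with a mean difference of 0.60 over the 5 arrays.

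Vat1l, the paralog of Vat1, read 5.94 with empty vector, then 8.40 with Cnot1, 8.40 with Cnot2, 7.53 with Cnot3, 7.44 with Trim28 and 7.63 with Cnot1,2,3. Ccdc141, the coiled-coil protein gene, read 6.69 with empty vector, then 9.25, 9.16, 9.03, 8.22 and 8.51 in the same order. Its other 5 probe sets had mean differences from 1.05 to 1.83 over the 5 arrays and followed the first with r of 0.91 to 0.96 over the 7 arrays. All 6 probe sets of Ccdc141 were highest with Cnot1. The members highest on the Cnot1 array were Sulf1, Rgs7, Ccdc141 and Dner. Vat1l was highest on Cnot2, Ddc on Cnot3 and 0 members on Trim28.

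**Figure D3:**
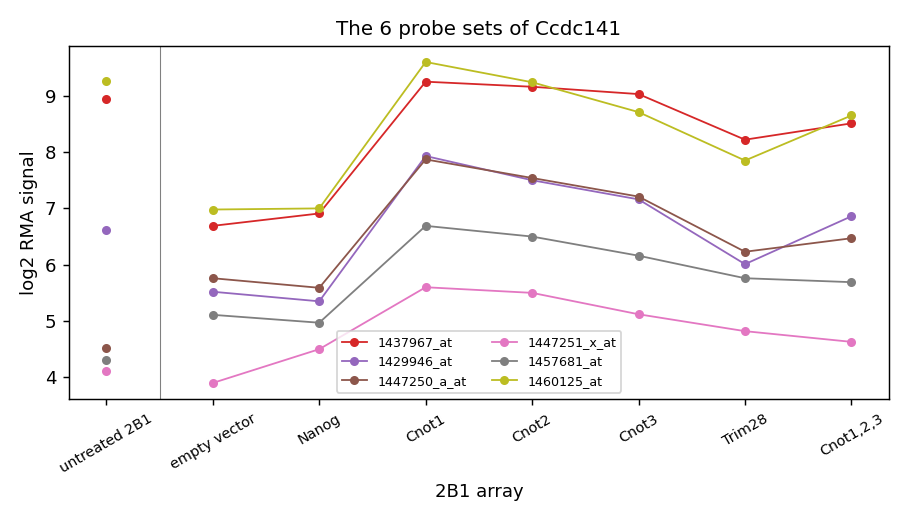
Log2 RMA signal (y axis) of the 6 probe sets of Ccdc141 on untreated 2B1 and the 7 transduced 2B1 arrays (x axis). Lines join values of a probe set over the transduced arrays. All 6 are highest on the Cnot1 array, and they disagree on how untreated 2B1 compares with empty vector.

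The choice of members has no stated limit, but each of the 10 was among the 5 highest differences on at least 1 of the 5 arrays. Another 6 genes did so too: 1700042O10Rik, G530011O06Rik, Lama1, Nat8f3, Nr0b1 and Sectm1a. On the Cnot1,2,3 array Zmat4 was the fifth at 3.00 and 1700007K13Rik was next at 2.95. On the Cnot1 array Dner was the fifth at 2.81 and Nudt7 was next at 2.65. The members therefore lie at the end of a continuous range of differences.

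The Nanog array was not used to choose the members, but it shares the empty vector reference with the arrays that were. With Nanog, 0 of 10 members were raised by at least 1 (0.561% of tested genes) and 1 was lowered by at least 1 (0.869% of tested genes). The lowered gene was Vat1l, which read 3.97 with Nanog against 5.94 with empty vector, a difference of -1.97. The other 9 members lay within 1 of the vector. Foxd1 read 7.71 (0.74), Tfap2d 4.46 (0.41), Zmat4 4.12 (-0.72), 2610300M13Rik 4.14 (-0.78) and Sulf1 6.61 (-0.86) with Nanog. Rgs7 read 4.97 (-0.16), Ddc 8.17 (0.06), Ccdc141 6.91 (0.22) and Dner 5.01 (0.75). The members' median was -0.05 and that of all tested genes -0.01. In 7 members, all but Tfap2d, Sulf1 and Dner, the lowest of the 5 Cnot and Trim28 arrays lay above both the vector and the Nanog array, which held for 14.7% of tested genes. The 5 arrays and the vector array chose the members, so this count is a description.

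**Figure D4:**
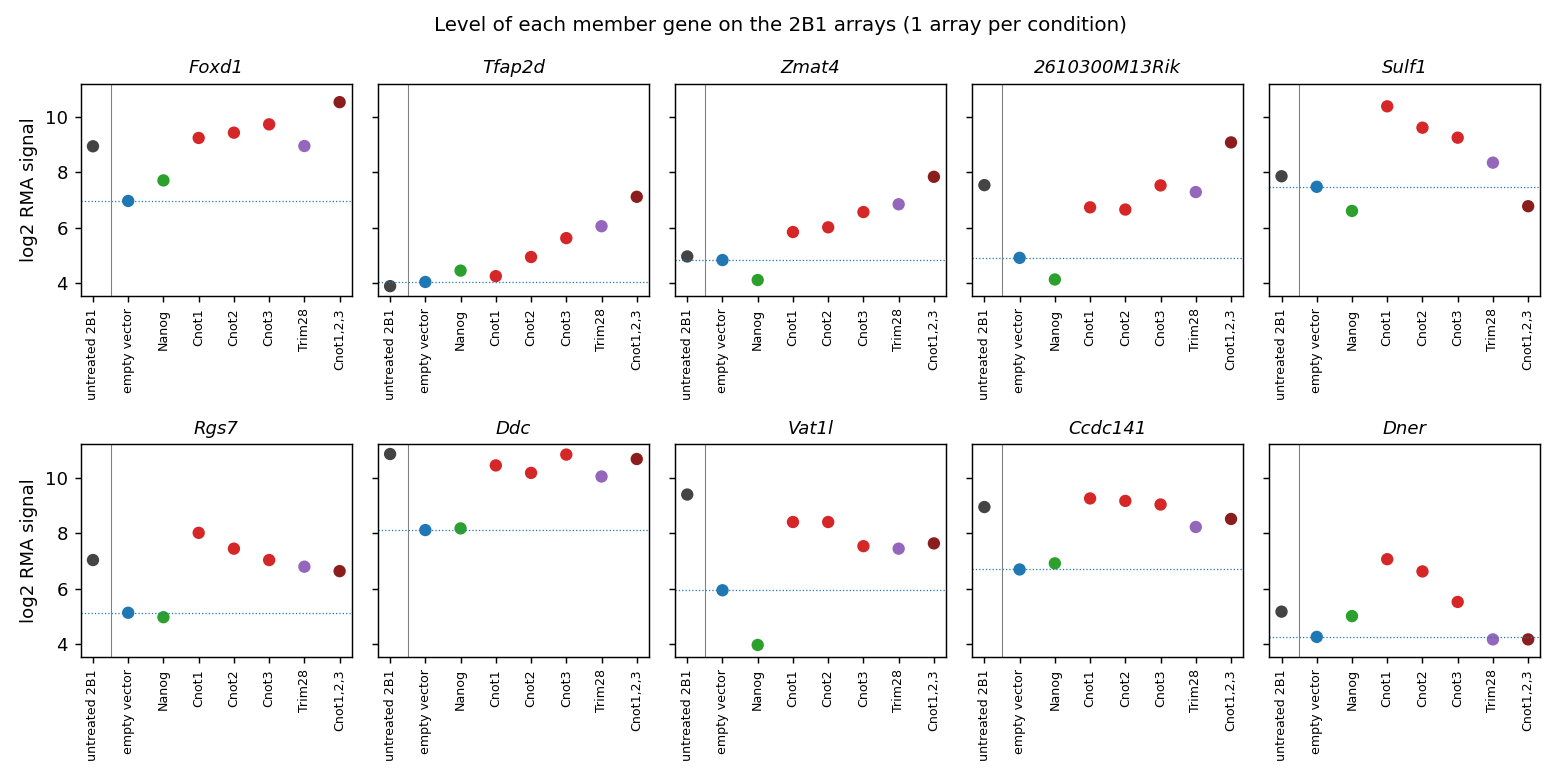
Log2 RMA signal (y axis) of each member gene on untreated 2B1 and the 7 transduced 2B1 arrays (x axis), 1 point per array. The grey line parts the 2 sets, which looked separately normalized, and the dotted line is the empty vector level. Untreated 2B1 lies at least 1 above empty vector in 6 of the 10 genes, among them Ddc (10.85 against 8.11).

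The untreated 2B1 array offered another reference, from the other normalized set. In 6 of 10 members, Foxd1, 2610300M13Rik, Rgs7, Ddc, Vat1l and Ccdc141, empty vector lay at least 1 below untreated 2B1, against 12.1% of tested genes. The same number held after quantile normalization of all 14 arrays and with arrays centred on their medians. The empty vector array was used to choose the members, so a low reading on it is part of the choice and this count is a description. Foxd1 read 8.94 in untreated 2B1, 2610300M13Rik 7.54, Rgs7 7.03, Ddc 10.85, Vat1l 9.39 and Ccdc141 8.94. The differences of empty vector from untreated 2B1 were -1.97, -2.61, -1.90, -2.74, -3.45 and -2.25 in that order. Dner read 5.17 in untreated 2B1 (difference -0.92), Sulf1 7.86 (-0.38), Zmat4 4.97 (-0.13) and Tfap2d 3.90 (0.15). The median of the members was -1.93 and that of all tested genes -0.27, and after quantile normalization of all 14 arrays these were -1.72 and -0.08.

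For Ccdc141 the direction depended on the probe set. The probe sets 1437967_at and 1460125_at read 8.94 and 9.26 in untreated 2B1 and 6.69 and 6.98 with empty vector, and 1429946_at read 6.61 and 5.52. In contrast, 1447250_a_at read 4.52 in untreated 2B1 and 5.76 with empty vector, and 1457681_at read 4.31 and 5.11. The last, 1447251_x_at, read 4.11 and 3.90. Against empty vector, all 6 were higher on the Cnot1 array than with empty vector.

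Set against untreated 2B1, the mean of the 5 Cnot and Trim28 arrays was at least 1 higher in 3 members, against 1.45% of tested genes. They were Tfap2d (1.70), Zmat4 (1.66) and Sulf1 (1.02). The 5 arrays chose the members, so this count is a description. Other probe sets gave 0.06 and 0.52 for Zmat4, and 0.98 and -0.22 for Sulf1. Vat1l lay 1.51 lower, at a mean difference of -1.51. The others lay between -0.42 (Ddc) and 0.64 (Foxd1), and the median of the members was 0.25. Ddc thus read 10.85 in untreated 2B1 and at most 10.83 on the 5 arrays, and Vat1l 9.39 and at most 8.40. For Ccdc141 the main probe set gave a mean difference of -0.10, and its other probe sets gave -0.44 to 2.54. On the Nanog array, 7 of 10 members lay at least 1 below untreated 2B1, against 12.2% of tested genes. Vat1l had the largest difference, -5.42, followed by 2610300M13Rik with -3.39, which was tested only through the arrays that chose it. Between the sets, the median difference of vector from untreated 2B1 was -0.52 on chromosome 6, -0.01 on chromosome 11 and -0.40 to -0.17 on the other 18 chromosomes.

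The untransduced arrays were not used to choose the members and appeared to be normalized apart. Untreated 2B1 lay at least 1 above untreated 5C5 in 8 of 10 members, against 4.41% of tested genes, and 0 members lay as far below it. The members were chosen for high signal on other arrays of clone 2B1. Among them, 2610300M13Rik and Dner were tested only through the arrays that chose them, so this count is a description. Each clone has 1 array, so this difference between clones has no test. Ccdc141 read 8.94 in 2B1 and 3.68 in 5C5, a difference of 5.25, and over its other 5 probe sets the difference ranged from 0.36 to 5.31. Foxd1 read 8.94 and 4.11 (4.83). 2610300M13Rik read 7.54 and 3.70 (3.84), Vat1l 9.39 and 5.77 (3.63), Ddc 10.85 and 7.26 (3.60) and Sulf1 7.86 and 4.81 (3.04). In 5C5 the values of Ccdc141 and 2610300M13Rik, and those of Tfap2d and Dner below, lay under 3.81, the 25th percentile of that array, and so near background. Rgs7 read 7.03 and 4.62, and Dner 5.17 and 3.43. Tfap2d (3.90 and 3.25) and Zmat4 (4.97 and 4.49) were low in both clones. The members' median difference was 3.32, and that of all tested genes 0.00. Median differences of 5C5 from 2B1 were -0.27 on chromosome 6, -0.03 on chromosome 11 and -0.05 to 0.06 on the other 18.

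The clones differed under 2i. In 2B1, 6 of 10 members lay at least 1 lower than untreated (8.85% of tested genes), with a members' median of -1.29. In 5C5, 6 of 10 lay at least 1 higher (11.2% of tested genes), with a median of 1.5. The first count holds 2610300M13Rik and the second Dner. Both were tested only through the arrays that chose them, so the counts are a description. Foxd1 went from 8.94 to 4.04 in 2B1 and from 4.11 to 4.52 in 5C5. Ccdc141 went from 8.94 to 6.98 in 2B1 and from 3.68 to 5.88 in 5C5, and 4 of its 6 probe sets had opposite signs in the clones. The other 2 had small differences of one sign, at -0.39 and -0.23 in 2B1 and -0.23 and -0.08 in 5C5. Ddc went from 10.85 to 9.69 and from 7.26 to 9.26, and Sulf1 from 7.86 to 6.44 and from 4.81 to 6.23. Rgs7 went from 7.03 to 6.05 and from 4.62 to 6.81, and Dner from 5.17 to 4.79 and from 3.43 to 5.01. In these 6 genes the differences had opposite signs in the clones, which lay closer to each other after 2i than before.

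**Figure D5:**
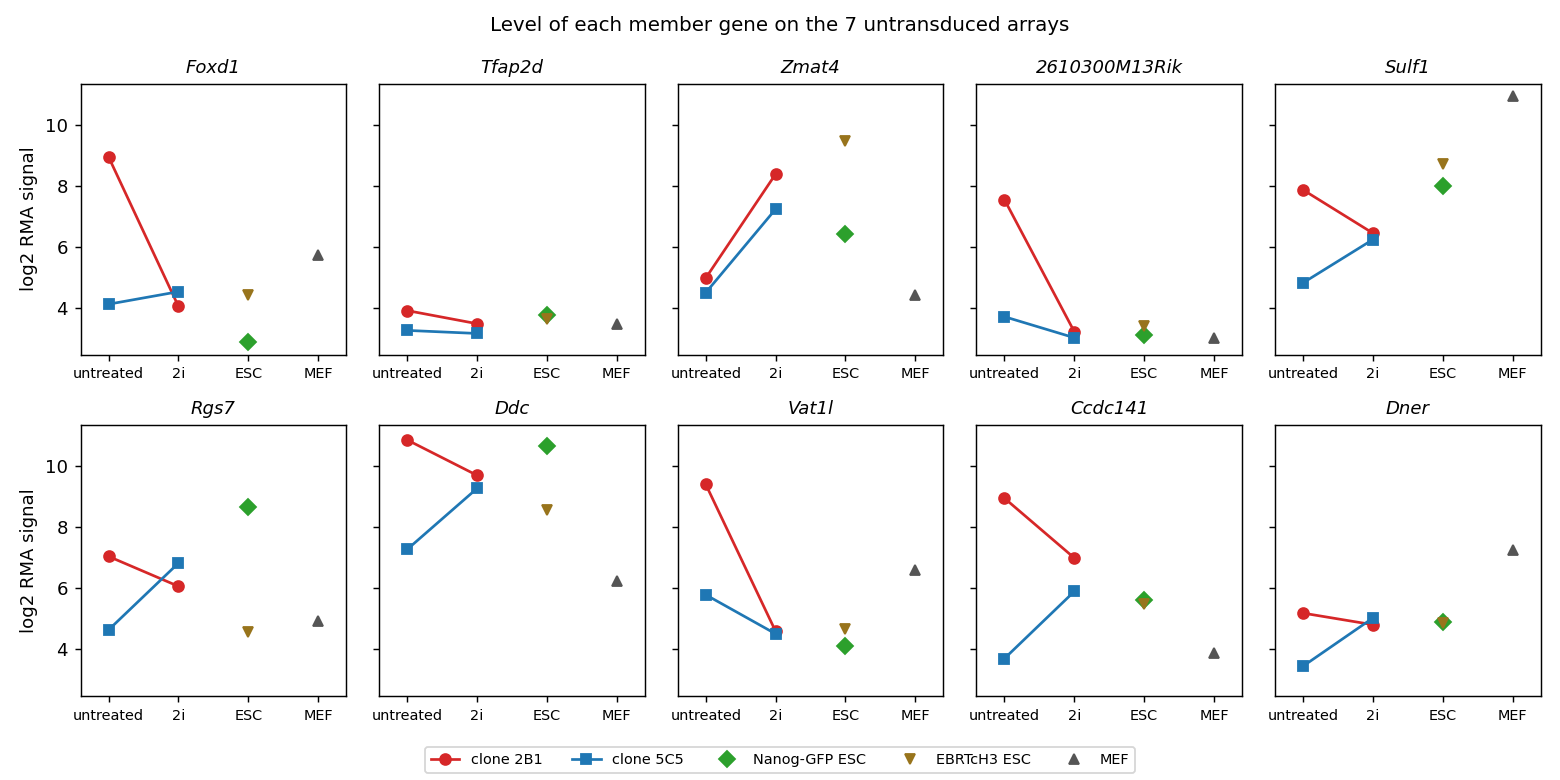
Log2 RMA signal (y axis) of each member gene in untreated and 2i cells of clones 2B1 and 5C5 (joined by a line), in 2 ESC lines and in MEFs (x axis), 1 point per array. Clone 2B1 starts above 5C5 in every gene, and Zmat4 lies higher and Vat1l lower under 2i in both clones.

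Zmat4 and Vat1l had the same sign in both clones. Zmat4 read 8.38 and 7.23 in 2i iPSCs of 2B1 and 5C5, against 4.97 and 4.49 before. Its other probe sets differed less, by 0.89 and 0.88 for one and 0.05 and -0.11 for the other. The mean went from 4.73 ± 0.34 (SD, n = 2) to 7.81 ± 0.81, a log2 fold change of 3.08 (SE 1.03) that missed the threshold of 0.05 (limma adjusted p = 0.151). With only the 4 arrays compared in the fit, the adjusted p was 0.0303. Vat1l read 4.57 and 4.49 under 2i, against 9.39 and 5.77 before, a log2 fold change of -3.05 (SE 1.15, limma adjusted p = 0.189). 2610300M13Rik read 3.21 and 3.01 under 2i, a log2 fold change of -2.51 (SE 1.20, limma adjusted p = 0.28). Tfap2d read 3.47 and 3.15, below the 25th percentile of its arrays in both.

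In the limma fit of 2i against untreated partial iPSCs, 0 of 10 members passed an adjusted p of 0.05, against 6% of tested genes. The lowest unadjusted limma p-values among the members were 0.0282 for Zmat4 and 0.0427 for Vat1l. The fit pools the 3 replicated groups, so the spread in this test is that between clones and between the ESC lines. Most members were far apart between the untreated clones, with an SD of 3.72 for Ccdc141 and 3.42 for Foxd1. For Zmat4 the SD was 0.34 between the untreated clones, 0.81 between the clones under 2i and 2.14 between the ESC lines. A limma refit without untreated 5C5 leaves 2B1 alone in its group, so log2 fold changes alone are given here. They were -4.66 for Foxd1, -4.43 for 2610300M13Rik and -4.86 for Vat1l, against -2.24, -2.51 and -3.05 in the main fit. Zmat4 alone was higher, at 2.84. 2610300M13Rik was tested only through the arrays that chose it, so its difference here is a description.

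ESCs gave the reference of genuine pluripotent cells. Against untreated partial iPSCs, 0 of 10 members were called by limma, while 15.9% of tested genes were. The lowest unadjusted limma p-values were again those of Zmat4 (0.0243) and Vat1l (0.0358). Zmat4 read 6.42 in Nanog-GFP ESCs and 9.45 in EBRTcH3 ESCs, a log2 fold change of 3.21 over partial iPSCs (SE 1.03, limma adjusted p = 0.098). Vat1l read 4.09 and 4.64, a log2 fold change of -3.21 (SE 1.15, limma adjusted p = 0.124). Foxd1 read 2.86 and 4.40 in ESCs, with a log2 fold change of -2.89 (SE 1.58, limma adjusted p = 0.267). 2610300M13Rik read 3.11 and 3.41 (-2.36, SE 1.20), and Sulf1 read 7.98 and 8.71 (2.01, SE 0.98).

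The differences in this comparison depended on which untreated clone was used. Such refits leave 1 array in a group, so log2 fold changes alone are given here. Without untreated 2B1 they were 3.53 for Sulf1 and 1.43 for Dner, against 2.01 and 0.56 in the main fit. Dner was tested only through the arrays that chose it. Foxd1, 2610300M13Rik and Vat1l lay lower in ESCs, at -0.48, -0.44 and -1.40. Without untreated 5C5 the values were -5.31 for Foxd1, -4.28 for 2610300M13Rik, -5.03 for Vat1l and -3.41 for Ccdc141. In the main fit these were -2.89, -2.36, -3.21 and -0.79. Zmat4 (2.97) and Sulf1 (0.49) lay higher in ESCs. Of the lower ones, 2610300M13Rik was again tested only through the arrays that chose it. Without Nanog-GFP ESCs, Zmat4 was at 4.72, against 3.21 in the main fit. The ESC lines themselves differed for Rgs7, at 8.64 in Nanog-GFP and 4.54 in EBRTcH3, and for Ddc, at 10.66 and 8.56. Ccdc141 read 5.59 and 5.46, Dner 4.88 and 4.85, and Tfap2d 3.76 and 3.64.

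Between 2i iPSCs and ESCs, 0 of 10 members were called, against 3.85% of tested genes. The lowest unadjusted limma p-value among the members was 0.0937, that of Sulf1. The largest difference was that of Sulf1, which read 6.34 ± 0.15 (SD, n = 2) in 2i iPSCs and 8.35 ± 0.52 in ESCs (-2.01, SE 0.98, limma adjusted p = 0.413). The other 9 members differed by -0.39 (Tfap2d) to 0.91 (Ccdc141), with SEs from 0.28 to 1.67.

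MEFs lay at least 1 above both untreated clones in 2 of 10 members, Sulf1 and Dner, against 9.9% of tested genes. Dner was tested only through the arrays that chose it. Sulf1 read 10.94 in MEFs, above its 10.38 on the Cnot1 array of the other set, and Dner read 7.24. Foxd1 read 5.72, Vat1l 6.57, Ddc 6.21 and Rgs7 4.92. Zmat4 read 4.40, Ccdc141 3.85, Tfap2d 3.45 and 2610300M13Rik 3.00, and the last 3 lay below 3.89, the 25th percentile of that array.

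Ordered over the 14 arrays, the members fell into different patterns. Foxd1, 2610300M13Rik, Vat1l and Ccdc141 were high in untreated 2B1 and on the 5 Cnot and Trim28 arrays, and at most 6.98 in 2i iPSCs and ESCs. Tfap2d was above 4.46 only on the Cnot2, Cnot3, Trim28 and Cnot1,2,3 arrays. Zmat4 was highest in EBRTcH3 ESCs (9.45) and 2i iPSCs of 2B1 (8.38), before the Cnot1,2,3 array (7.84). Sulf1 and Dner were highest in MEFs, and Rgs7 in Nanog-GFP ESCs. Ddc was at 10.04 or higher on the 5 arrays, in untreated 2B1 and in Nanog-GFP ESCs, and lower on the other 7 arrays.

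Gene families and pathways of the members were set beside them, with the members left out. Genes raised by at least 1 on at least 1 of the 5 arrays made up 6.53% of tested genes, and lowered ones 10.1%. Of 2 other AP-2 genes tested, Tfap2c, a factor of trophoblast and germ cells, was raised. It read 6.52 with empty vector, then 8.43 with Cnot1, 8.47 with Cnot2, 8.26 with Cnot3, 7.49 with Trim28 and 8.51 with Cnot1,2,3. It read 6.80 with Nanog, 8.75 in untreated 2B1, 6.05 in untreated 5C5 and, lowest of the 14 arrays, 3.15 in MEFs. The other forkhead D gene tested, Foxd3, a factor of pluripotent and neural crest cells, was within 1 of the vector on all 5. It rose under 2i (log2 fold change 1.31, limma adjusted p = 0.0466) and was higher in ESCs (2.37, limma adjusted p = 0.00514).

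Of 18 other heparan sulfate genes, 0 were raised on any of the 5 arrays and 2 were lowered. Hs6st2, which adds the 6-O-sulfate that Sulf1 removes, read 9.21 with empty vector, then 6.28, 7.32, 7.26, 8.67 and 8.11 in the order Cnot1, Cnot2, Cnot3, Trim28 and Cnot1,2,3. The heparan sulfate carrier Gpc3 read 5.82, then 4.33, 4.65, 4.52, 5.30 and 4.30. Among the transduced arrays, Hs6st2 was lowest and Sulf1 highest on the same array, Cnot1. Of 12 other genes of G protein regulators and their partners, Rgs20 was raised, from 4.58 to 6.06 with Cnot1,2,3, and 0 were lowered. Of 9 other genes of monoamine synthesis and transport, Tph1, which makes the serotonin precursor, was raised (4.73 with empty vector, 6.36 with Cnot1 and 6.39 with Cnot2). Gch1, which makes a cofactor of that step, was lowered with Cnot1,2,3 (7.91 to 6.35).

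Of 19 other Notch pathway genes, 2 were raised and 2 lowered. The ligand gene Dll1 read 6.21 with empty vector and 7.92 with Cnot2, and Dlk1 read 5.35 and, with Cnot1,2,3, 6.59. Hes1, a target of Notch, read 11.19 with empty vector and 9.17 with Cnot1,2,3, and the target Hey1 read 7.30 and 5.97. Among the 2 other genes of the Vat1 family, 4 other Zmat genes and 8 genes of neuronal migration, 0 were raised and 0 lowered on any of the 5 arrays.

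Markers of tissues in which members are known were counted in the same way. Of 11 neural markers, 2 were raised and 7 lowered on at least 1 of the 5 arrays, with Tubb3 and Gap43 in both counts. Sox3, a factor of neural progenitors, read 7.29 with empty vector and 4.36, 5.12, 4.63, 5.37 and 4.13 on the 5 arrays. Sox3 read 7.96 with Nanog, 4.11 in untreated 2B1 and 7.64 in untreated 5C5. Of 10 neural crest markers, 2 were raised (Pax3 and Ets1) and 4 lowered, and of 6 markers of kidney stroma and its neighbours Osr1 was raised and Six2 lowered. Of 15 fibroblast genes, 5 were raised and 2 lowered, of 7 endoderm genes 2 were raised, and of 4 trophoblast genes 1 was raised and 1 lowered. Of 15 naive pluripotency genes, 5 were raised and 3 lowered, with Tfcp2l1 in both counts. The pluripotency factor gene Nr0b1 read 8.53 with empty vector, then 10.13, 10.26, 10.65, 10.40 and 11.54. Nr0b1 read 7.70 with Nanog, 10.76 in untreated 2B1 and 9.75 in untreated 5C5. The part of such markers in the members' differences was not tested.

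A range of at least 1 over the 7 transduced arrays held for 2753 tested genes, the members included. Among the others of these, 5 were the closest to the members' median pattern by Pearson's r over those arrays. They were Hccs, Hmgcll1 and Zfp941 with r = 0.993, Aspa with 0.992 and Smc1a with 0.991. The 7 arrays share the clone, and the highest of many r values is high by selection. Hmgcll1 read 5.62 with empty vector and 5.22 with Nanog, and 7.77, 7.73, 7.47, 6.95 and 7.47 on the 5 arrays. It read 7.79 in untreated 2B1 and 3.60 in untreated 5C5. Smc1a, a cohesin subunit gene on the X chromosome, read 11.18 with empty vector and 11.04 with Nanog, and 11.87 to 12.15 on the 5 arrays. Hccs, also on the X chromosome, read 9.68 and 9.47, and 10.52 to 11.05 on the 5 arrays.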

How the data were processed

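Total RNA of 14 mouse cell samples was hybridised to Affymetrix expression arrays, 1 array per sample. The deposited values are log2 probe set signals of 45101 probe sets, made with RMA and the affy package per the submitters' processing notes (versions not given in the sources used here). RMA subtracts background, makes the arrays' distributions alike and combines probes. Sorted values differed by a median range of 0.085 and 0.096 within the untransduced and transduced sets of 7 arrays, and by 0.318 over 14, so levels set across the sets are open to this shift. Arrays have no read depth, and their number limits the precision.

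Probe sets were named from the platform's annotation (34945 with 1 gene, 932 with several, 9160 with none, 64 controls left out), and 34741 matched RefSeq genes of GRCm38.p6, used for names and chromosomes. Genes were tested where at least 2 of 14 arrays reached the table median of 5.42, which left 5530 out as dim. The 3 replicated groups (2 arrays each) entered 1 fit of 6 arrays with limma 3.58.1 (R 4.3.3; 3 degrees of freedom left, plus 2.25 from the prior), with two-sided p-values adjusted by the Benjamini-Hochberg method over 12663 genes. Since the arrays of a group came from different clones or lines, the spread behind each p-value is that between clones or lines. The fit was tested on simulated data.

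Untreated and 2i arrays are paired by clone, and deviations of the same clone from the group means had a correlation of 0.11 across genes. The fit without the clone was the main one. Conditions with 1 array had no test, and differences of at least 1 (log2) were counted. The members and the gene lists were chosen with earlier results of these data known. Named were all members with their probe sets, at most 4 genes per list (the 2 highest and the 2 lowest mean differences from vector among genes past 1 on any of the 5 arrays, or called genes), the 5 genes closest to the members' pattern, and the introduced factors. Genes named outside this rule are Xist, Zfp42, Col1a2 and the neighbours of the members by rank, chosen after their values were seen. Alternatives covered normalization, filter, arrays in the fit, the clone as a block, the probe set, the fold and the reference array. Subtracting chromosome medians was added after seeing the data.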

Additional observations from a re-analysis of the deposited data

Results flagged for a closer look

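In 6 members the difference of 2i from untreated cells had opposite signs in clones 2B1 and 5C5, with 1 array for each clone and medium. It was -4.90 in 2B1 and 0.42 in 5C5 for Foxd1, and -1.42 and 1.42 for Sulf1. For Rgs7 it was -0.98 and 2.19, and for Ddc -1.17 and 2.00. For the main probe set of Ccdc141 it was -1.96 and 2.20 (4 of its 6 probe sets had opposite signs), and for Dner -0.38 and 1.58. The difference between the clones was not tested, since each has no repeated array.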

How the results depend on the processing

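Counts of members raised against empty vector were 9, 9, 10, 8 and 8 on the Cnot1, Cnot2, Cnot3, Trim28 and Cnot1,2,3 arrays, and also with chromosome medians subtracted, a setting chosen after seeing the data. After quantile normalization of all 14 arrays, and with arrays centred on their medians, the count on the Cnot1 array was 8. The counts on the other arrays stayed the same. With untreated 2B1 as reference, an array of the other set, the counts on these arrays were 2, 4, 3, 2 and 4. The shares of all tested genes on each array were not counted here, so these counts are a description. For the mean of the 5 arrays the count was 3 members, against 1.45% of tested genes. As deposited, the mean difference was then below 0 for 2610300M13Rik (-0.08), Ddc (-0.42), Vat1l (-1.51) and Ccdc141 (-0.10). After quantile normalization of all 14 arrays, Ddc (-0.19) and Vat1l (-1.24) stayed below 0, and 2610300M13Rik and Ccdc141 were both at 0.19. With arrays centred on their medians, 2610300M13Rik was at 0.07 and Ccdc141 at 0.05. The other probe sets of Ccdc141 gave -0.44 to 2.54 as deposited. At 1.5-fold, 2 members were raised and 4 lowered with Nanog. The share of all tested genes at 1.5-fold was not counted, so nothing is read from these counts. In 2i against untreated cells, a fit of only the 4 arrays compared called 1 member and 1396 genes, and the clone as a replicate block left 297 genes and 0 members. The Ccdc141 probe set of highest variance gave -1.12 there. In ESCs against untreated cells only the 4 arrays compared gave 780 genes. The cause was not tested, beyond the fewer arrays in a fit.

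Leaving out each array in turn gave ranges as follows; a lone array borrows the spread of the other groups. For 2i against untreated cells, 0 to 2 members and 43 to 1396 genes were called. Log2 fold changes ran from -4.66 to 0.17 for Foxd1, -0.59 to 0.06 for Tfap2d, -0.60 to 1.81 for Rgs7 and -1.38 to 2.22 for Ddc. They ran from -2.51 to 2.75 for Ccdc141 and -0.27 to 1.47 for Dner. For Sulf1 they ran from -1.52 to 1.52, for Vat1l from -4.86 to -1.24 and for 2610300M13Rik from -4.43 to -0.59. For ESCs against untreated cells, 0 to 4 members and 780 to 2328 genes were called. Here Tfap2d ran from -0.20 to 0.45, Rgs7 from -1.28 to 2.82, Ddc from -1.24 to 2.35, Ccdc141 from -3.41 to 1.84 and Dner from -0.31 to 1.43. Foxd1 ran from -5.31 to -0.48, 2610300M13Rik from -4.28 to -0.44, Sulf1 from 0.49 to 3.53, Vat1l from -5.03 to -1.40 and Zmat4 from 1.70 to 4.72. For 2i iPSCs against ESCs, 0 to 786 genes were called. Foxd1 ran from -0.12 to 1.42, Zmat4 from -1.64 to 1.38, Rgs7 from -2.21 to 1.89, Ddc from -1.19 to 0.92, Vat1l from -0.11 to 0.44 and Dner from -0.07 to 0.14. With the filter on the 6 fitted arrays, Foxd1, Tfap2d, 2610300M13Rik and Dner were not tested. Signals below the 25th percentile of an array limit Tfap2d and 2610300M13Rik on 6 arrays, those without transduction other than untreated 2B1.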

Other observations

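Lama1 and Tead4, which are not members, had lower readings on the empty vector and Nanog arrays than on the 5 Cnot and Trim28 arrays and in untreated 2B1. The laminin chain gene Lama1 read 5.66 with empty vector and 4.78 with Nanog. It read 7.56 to 8.26 on the 5 arrays and 8.65 in untreated 2B1, against 4.54 in untreated 5C5. Tead4, a trophoblast factor, read 6.73 with empty vector, 6.68 with Nanog, 7.06 to 8.27 on the 5 arrays, 8.31 in untreated 2B1 and 6.32 in untreated 5C5. Eomes, a transcription factor of trophoblast and mesendoderm, read 7.64 with empty vector, 10.63 with Nanog, 4.13 in untreated 2B1 and 6.68 in untreated 5C5. It read 3.42 with Cnot1, 5.18 with Cnot2, 6.66 with Cnot3, 7.80 with Trim28 and 4.08 with Cnot1,2,3, so the Trim28 array lay with empty vector in this gene. These genes were chosen after their values were seen.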
